A study of Homo sapiens with 9 samples.

Results

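Cadherins and protocadherins are adhesion proteins of the cell surface. The set described here holds every row of the deposited count table that mapped to a protein-coding gene named CDH or PCDH followed by a number, or by the letter A, B or G of a protocadherin cluster and its number. CDHR genes were left out. The rule found 89 genes among 60448 rows, made up of 23 cadherins, 13 non-clustered protocadherins, 15 genes of the alpha cluster, 16 of the beta cluster and 22 of the gamma cluster. A further 23 rows with names close to the rule, mostly pseudogenes and antisense transcripts, were not protein-coding and were left out. A total of 42 of the 89 genes passed the filter on low counts and were tested.

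The libraries came from 9 samples of total RNA labelled Huh7, which is an established human liver cancer line, kept here in DMEM. There were 3 control libraries, and 3 in each of a pair of knock-down sets, named N_28 and N_30, of OPA1, a dynamin-like GTPase that fuses inner mitochondrial membranes. The treatment field of the labels names lentiviral OPA1 knock-down for all 9 libraries, the controls included, and does not say what the controls received or what N_28 and N_30 denote. The labels name no separate cultures for the 3 replicates of a group, and p-values thus rest on a spread between libraries that may be technical.

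Classical cadherins bind the same cadherin on a neighbouring cell in a calcium-dependent way, and their cytoplasmic tails hold the catenins, which link them to actin. E-cadherin (CDH1) is the main cadherin of epithelia, hepatocytes carry it together with N-cadherin (CDH2), and loss of the former with gain of the latter is the pattern often called a cadherin switch. Protocadherins lack the catenin-binding tail. Most of them sit in the alpha, beta and gamma clusters on chromosome 5, where each first exon has a promoter of its own and cells differ in which promoters they use, a system studied mostly in neurons.

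Each library held between 16476389 and 22863328 counts, of which the 89 genes took 0.0369% to 0.0497%. Levels are given as CPM, counts relative to library sizes that were scaled by edgeR's TMM method, and 3 counts were worth at most 0.181 CPM in any library. OPA1 stood at 82.8, 92.9 and 90.5 CPM in the controls, at 53.3, 55.7 and 57.8 in N_28 and at 64.2, 63.3 and 65.9 in N_30, and it was lower in N_28 by edgeR's quasi-likelihood test (log2 fold change -0.68, SE 0.061, adjusted p = 1.38e-05) and in N_30 (-0.46, SE 0.061, adjusted p = 0.00221). The liver markers went against the tissue of the label: of 11 hepatocyte genes, 3 reached a mean of 1 CPM in the controls, APOB had no count in any library and ALB averaged 0.0788 CPM in the controls. The renal transcription factor PAX2, 1 of 8 renal tubule markers, averaged 154 CPM there. Of these 8 markers, 4 reached a mean of 1 CPM in the controls and 2 had no count in any library. Together they summed to 121 to 188 CPM in the controls. In N_28 and in N_30 the libraries numbered 3 stood apart: they differed from libraries 1 and 2 of their group by a mean chi-square per gene of 6.42 to 12.4, where libraries 1 and 2 differed from each other by 3.57 and 5.52.

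The clustered genes share sequence around their starts, and short windows were taken from RefSeq promoters (GRCh38.p14, 250 bases before to 50 after each start). Each window was cut around a stretch common in its cluster, and only promoters holding that stretch gave a window. Likeness in the stretch was thus set by the choice. The windows cannot tell how alike the promoters of genes with and without counts are. The RefSeq table held 70 of the 89 genes. The most frequent stretch of 9 bases in the promoters of each cluster was found from these promoters themselves. Its frequency in them is thus a description. Matches on both strands were counted. Within the clusters a gene counted if any of its promoters matched, while the whole table was counted by promoter. Such stretches with a CGCT core are known as the conserved element of clustered protocadherin promoters. In the beta cluster GGTGGCGCT stood in promoters of 13 of 14 genes (92.9%), against 176 of 35116 promoters of this length in the whole table (0.501%). The windows below are on the plus strand of chromosome 5, the capitals mark that stretch, and they run from 2 beta genes with many counts (PCDHB5 and PCDHB2) through PCDHB15, which differed between the knock-down sets, to PCDHB3, the lowest of the tested beta genes per kilobase. They lie at chr5:141135182-141135211, chr5:141094547-141094576, chr5:141245317-141245346 and chr5:141100396-141100425.
PCDHB5: ggacgcctGGTGGCGCTgcaggctaagagt
PCDHB2: agacgcggGGTGGCGCTgcagccttagaag
PCDHB15: caacgcatGGTGGCGCTgcaggctaaggct
PCDHB3: gaacgcatGGTGGCGCTgttgactaagaag

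PCDHB1 was the beta gene whose promoter did not hold GGTGGCGCT, and it had no count in any of the 9 libraries. In the alpha cluster GATGTCGCT stood in promoters of 9 of 13 genes (69.2%), against 37 of 35116 promoters in all (0.105%). PCDHA7, the highest alpha gene, and PCDHA2, which had no count in any library, both held it, with the capitals marking the stretch, at chr5:140834175-140834204 and chr5:140794784-140794813. In the gamma cluster GNCGCTGT, a pattern of 8 bases that can overlap GCGCCGCTG, was found in promoters of 17 of 20 genes (85.0%), against 1526 of 35116 promoters in all (4.35%). This pattern was set by hand and not found by the rule above, so its frequency is likewise a description. GCGCCGCTG itself, the most frequent stretch of 9, stood in promoters of 10 of 20 gamma genes (50%), against 450 of 35116 promoters (1.28%). The highest gamma genes per kilobase, PCDHGC3 and PCDHGB5, are shown with the capitals marking GNCGCTGT, at chr5:141475886-141475915 and chr5:141397869-141397898 on the plus strand.
PCDHA7: ggccacatGATGTCGCTctttaccgcaaat
PCDHA2: agccacatGATGTCGCTgtccaccatagag
PCDHGC3: ctctgtgtGCCGCTGTcggccaatgaagac
PCDHGB5: ctctgggcGCCGCTGTtggccaaagtgcag

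The stretches stood in genes of unlike levels. PCDHB3 and PCDHB5 both held theirs, at 0.158 and 6.95 CPM per kilobase of exon, and so did PCDHA2, with no count. These matches are letters in a window of 300 bases, and whether any factor binds them was not measured.

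A few members carried most of the family's signal. Divided by the length of their merged GENCODE 29 exons, so that genes can be set side by side, the highest levels over the 9 libraries were those of CDH2 at 24.8 CPM per kilobase and CDH24, a classical cadherin of the type II group, at 12.1. Then followed the beta genes PCDHB8 at 8.09, PCDHB5 at 6.95, PCDHB6 at 5.63 and PCDHB2 at 4.38, and the gamma genes PCDHGC3 at 3.997 and PCDHGB5 at 3.65 CPM per kilobase. A mean of at least 1 CPM over the libraries was reached by 36 of the 89 genes, and a mean of at least 10 CPM by 11.

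**Figure D1:**
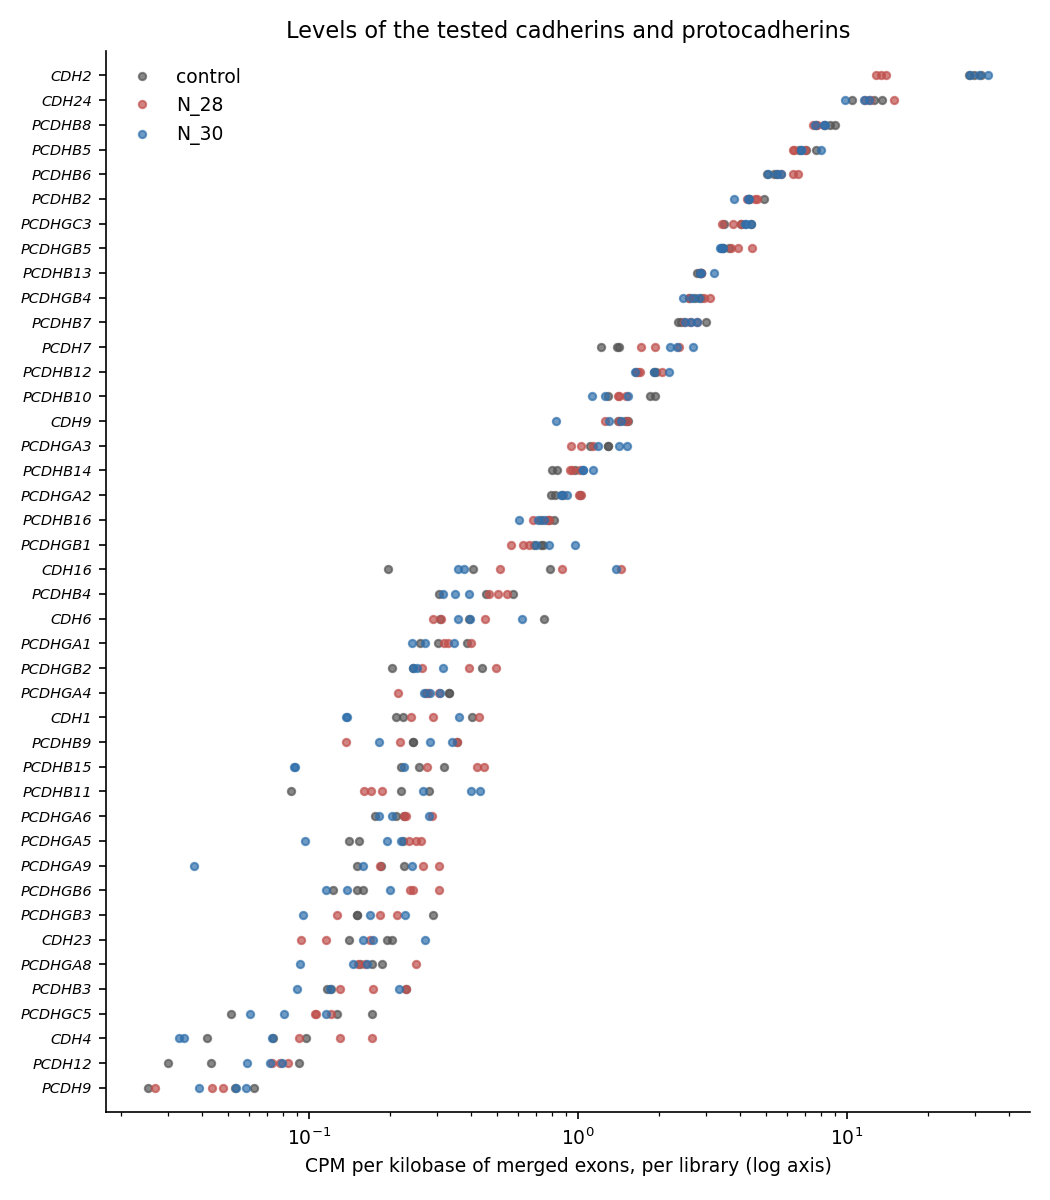
Levels of the 42 tested cadherins and protocadherins, 1 row per gene. The x axis is CPM per kilobase of merged exons on a log axis and each point is 1 library (grey control, red N_28, blue N_30). CDH2 lies at the top, with its 3 N_28 points left of the other 6, and CDH24 and PCDHB8 follow.

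The 8 highest members differed in how steady they were. CDH24 stood at 50.6, 39.2 and 47.0 CPM in the controls, at 45.7, 43.8 and 55.9 in N_28 and at 43.2, 36.8 and 45.3 in N_30. Its groups overlapped, and its log2 fold changes, 0.09 for N_28 (SE 0.11, adjusted p = 0.693) and -0.13 for N_30 (SE 0.11, adjusted p = 0.730), did not pass the test. PCDHB8 stood at 24.7, 23.7 and 20.9 CPM in the controls, at 20.5, 21.2 and 22.6 in N_28 and at 22.5, 22.6 and 20.8 in N_30, again with overlapping groups. PCDHGC3, a gamma C-type gene, lay between 18.6 and 24.0 CPM in all 9 libraries. PCDHGB5 and PCDHB6 were each higher in all 3 N_28 libraries than in any control (18.0 to 21.5 against 16.7 to 17.7 CPM, and 18.5 to 21.5 against 16.5 to 17.9 CPM), with log2 fold changes of 0.20 and 0.22 that did not pass the test (adjusted p = 0.172 and 0.131).

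Against control, CDH2 was lower in N_28 and PCDH7 was higher, and these were 2 of the 42 tested members (4.76%, where 10.2% of all 15019 tested genes were called, 4.49% higher and 5.75% lower). In N_30 PCDH7 was higher and was the 1 member called of 42 (2.38%, where 0.866% of all tested genes were called, 0.459% higher and 0.406% lower). The replicate number was taken to pair these 2 groups. With it as a block, in a fit of all 9 libraries with N_28 included, it was still 1 of 42, and 2.82% of all tested genes were called. The members' share thus lay above that of all genes without the block and below it with the block. It also lay below without the block when low counts were not filtered (1 of 76, 1.32%, beside 1.75% of all genes). A gene was called where edgeR's p, adjusted by Benjamini and Hochberg's method over the 15019 tested genes, was under 0.05. The median log2 fold change of the 42 members was 0.05 in N_28 and -0.04 in N_30, beside medians near 0 over all tested genes (-0.0015 and -0.00067). An unadjusted p under 0.05 was reached by 6 members in N_28 (14.3%, beside 23.9% of all tested genes) and by 5 in N_30 (11.9%, beside 11.4%). The comparisons with control share the same 3 control libraries.

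CDH2 encodes N-cadherin, the classical cadherin of neural and mesenchymal cells (ENSG00000170558, GRCh38 chr18:27950966-28177446, minus strand). It stood at 155, 147 and 140 CPM in the controls, at 63.7, 69.2 and 66.5 in N_28 and at 165, 154 and 142 in N_30. The 3 N_28 libraries were below all 6 others, and the control and N_30 libraries overlapped. N_28 differed from control by a log2 fold change of -1.15 (SE 0.068, adjusted p = 7.72e-07), and N_30 by 0.06 (SE 0.066, adjusted p = 0.810). Between the knock-down sets the log2 difference was 1.21 (SE 0.068, adjusted p = 1.27e-07), higher in N_30. Without the 3 libraries numbered 3 it was -1.19 (adjusted p = 3.29e-07) for N_28 against control and 1.26 (adjusted p = 6.95e-08) between the sets. CDH2 made up 32.7% of the summed CPM of the 89 genes in the controls, 17.3% in N_28 and 33.0% in N_30.

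**Figure D2:**
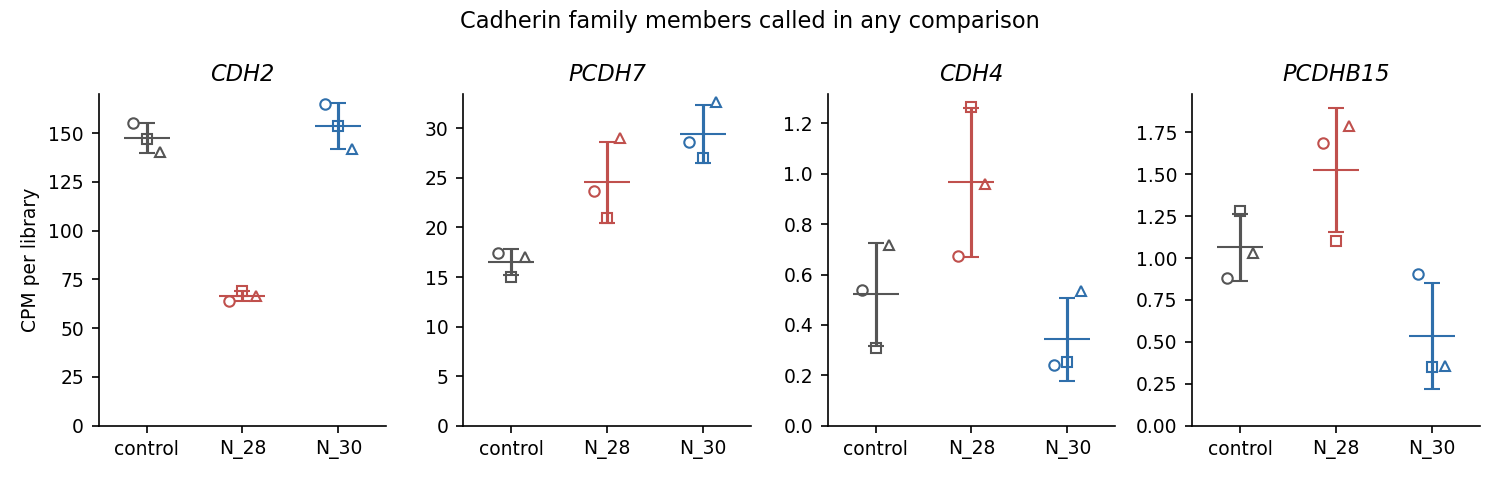
CPM per library of the 4 members called in any comparison between groups. Circles, squares and triangles are the libraries numbered 1, 2 and 3 of each group, the horizontal bar is the group mean and the error bar the SD (n = 3). CDH2 is low in N_28 alone (63.7 to 69.2 CPM), PCDH7 is above the control range in both knock-down sets, and CDH4 and PCDHB15 are low in N_30 relative to N_28 at levels under 2 CPM.

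The summed hepatocyte, epithelial, neuronal and mesenchymal markers were lower in every N_28 library than in any control. The endothelial sum was higher, and the renal and blood sums overlapped the controls (renal 128 to 192 CPM in N_28, 121 to 188 in the controls). Among single tested genes, 14.6% had all N_28 libraries below all controls. The summed level of the 11 hepatocyte markers ran from 7.69 to 9.52 CPM in N_28, from 11.6 to 14.7 in the controls and from 13.2 to 18.7 in N_30, while their defining genes ALB, APOA1 and APOB stayed at or near 0 in every group. The 7 epithelial markers summed to 386 to 431 CPM in N_28, 470 to 543 in the controls and 570 to 602 in N_30. Of the 7, 3 reached 1 CPM in the controls. The N_30 sum thus lay above the controls. CDH1, 1 of the 7, averaged 1.97 CPM in N_28 and 1.72 in the controls, with overlapping libraries. The 6 neuronal markers summed to 13.1 to 14.2 CPM in N_28, 14.4 to 20.3 in the controls and 14.2 to 20.5 in N_30. Their N_28 and N_30 ranges met at 14.2 CPM. Of the 6, 3 reached 1 CPM in the controls and STMN2 was at 0 in every library. The 7 mesenchymal markers summed to 2114 to 2213 CPM in N_28, 2252 to 2383 in the controls and 2257 to 2427 in N_30. Their part in the CDH2 result was not tested, and fewer cells of a type cannot be told apart in bulk RNA from less RNA per cell.

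Within 5 Mb of CDH2 on either side, 27 other genes were tested, of which 7 were lower and 0 higher in N_28, where 5.75% of all tested genes were called lower. The nearest of them, the sulfotransferase gene CHST9, had a log2 fold change of -0.43 (adjusted p = 0.0352). In N_30 against control 1 of the 27 was higher and 0 were lower. The genes whose log2 CPM followed CDH2 most closely over the 9 libraries, among the 10680 genes averaging 5 CPM or more, were GLTP (Pearson r = 0.995), SPECC1 (0.992), NRCAM (0.992), CETN2 (0.991) and OSBPL9 (0.991). Each of these r values is a description over libraries that share their group structure: NRCAM, a neuronal adhesion molecule of the immunoglobulin type, averaged 8.005 CPM in the controls, 2.93 in N_28 and 7.80 in N_30.

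PCDH7 encodes a non-clustered protocadherin of the delta type (ENSG00000169851, GRCh38 chr4:30720415-31146805, plus strand). Its level was 17.4, 15.0 and 17.0 CPM in the controls, 23.7, 20.9 and 29.03 in N_28 and 28.6, 27.0 and 32.6 in N_30. All 6 knock-down libraries were above all 3 controls, and N_28 and N_30 overlapped. N_28 exceeded control by a log2 fold change of 0.58 (SE 0.12, adjusted p = 0.00653) and N_30 by 0.84 (SE 0.12, adjusted p = 0.00358), and the difference of 0.26 (SE 0.12, adjusted p = 0.142) between the sets did not pass the test. Without the 3 libraries numbered 3 the values were 0.46 (adjusted p = 0.0205) in N_28 and 0.78 (adjusted p = 0.00311) in N_30. The 6 endothelial markers also summed higher in both sets, to 1.43 to 1.61 CPM in the controls, 2.25 to 2.99 in N_28 and 1.74 to 2.31 in N_30, with PECAM1 the 1 marker that reached 1 CPM and KDR at 0 in every library, and their part in the PCDH7 result was not tested. Averaged over both sets, PCDH7 was higher by 0.71 (SE 0.11, adjusted p = 0.00368) and CDH2 lower, with a log2 fold change of -0.55 (SE 0.06, adjusted p = 0.000306). These were 2 of 42 members (4.76%) in that comparison, where 1.78% of all tested genes were called (0.533% higher and 1.25% lower), and the CDH2 mean joins the called difference in N_28 with an uncalled value near 0 in N_30.

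Around PCDH7, 5 genes were tested within 5 Mb on either side, and by edgeR 0 of them were called in any comparison between groups, with log2 fold changes from -0.29 to 0.33. The 5 genes with the closest pattern to PCDH7 over the 9 libraries were CAMKK1 (Pearson r = 0.943), RABL6 (0.936), ABHD12 (0.934), BIN1 (0.932) and B4GALT5 (0.916), again a description only. CAMKK1, a calcium/calmodulin-dependent kinase kinase, averaged 19.7 CPM in the controls, 23.8 in N_28 and 25.6 in N_30. The other 2 tested non-clustered protocadherins were low and uncalled: PCDH9 averaged 1.45 CPM (SD 0.595, n = 3) in the controls, and PCDH12 averaged 0.375 CPM (SD 0.223, n = 3).

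Set against each other, the knock-down sets differed in 3 members of 42 (7.14%, where 18.3% of all tested genes were called, 9.38% higher and 8.96% lower). CDH2 was higher in N_30, and CDH4 and PCDHB15 were lower. An unadjusted p under 0.05 was reached by 11 members (26.2%, beside 31.1% of all tested genes), and the median log2 fold change was -0.13, beside 0.0020 over all tested genes.

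CDH4, or R-cadherin, is a classical cadherin close to CDH2 and known from the retina (ENSG00000179242, GRCh38 chr20:61252426-61940617, plus strand). It had 4 to 23 counts a library, which gave 0.538, 0.307 and 0.717 CPM in the controls, 0.674, 1.26 and 0.961 in N_28 and 0.241, 0.252 and 0.534 in N_30. The N_28 libraries were above the N_30 libraries, and the controls overlapped both. The log2 fold change of N_30 against N_28 was -1.42 (SE 0.42, adjusted p = 0.0322), made up of 0.85 (adjusted p = 0.199) and -0.57 (adjusted p = 0.711) against control, neither of which passed the test. The call was lost when any 1 of 4 libraries was left out: adjusted p = 0.123 without N_28 library 2, 0.0754 without N_28 library 3, 0.102 without N_30 library 1 and 0.115 without N_30 library 2.

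PCDHB15 is a single-exon gene of the beta cluster (ENSG00000113248, GRCh38 chr5:141245349-141249365, plus strand), and its promoter holds the GGTGGCGCT stretch of PCDHB5 and PCDHB2. With 7 to 41 counts a library, it stood at 0.880, 1.28 and 1.03 CPM in the controls, at 1.69, 1.10 and 1.79 in N_28 and at 0.903, 0.352 and 0.356 in N_30. All N_28 libraries were above all N_30 libraries, and the control range overlapped both. The log2 fold change of N_30 against N_28 was -1.57 (SE 0.36, adjusted p = 0.00877), and against control the values were 0.53 (adjusted p = 0.341) in N_28 and -1.03 (adjusted p = 0.304) in N_30. Without the 3 libraries numbered 3, an alternative chosen after seeing the data, the difference was -1.20 with an adjusted p of 0.104. Of its exon bases 10.2% overlap exons of other annotated genes (AC244517.10 and AC244517.11), counted on either strand. Neither the strand setting nor the counting of reads in such exons is stated. The share was larger for PCDHB16 (24.9%), PCDHB2 (15.0%) and PCDHB5 (14.7%).

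**Figure D3:**
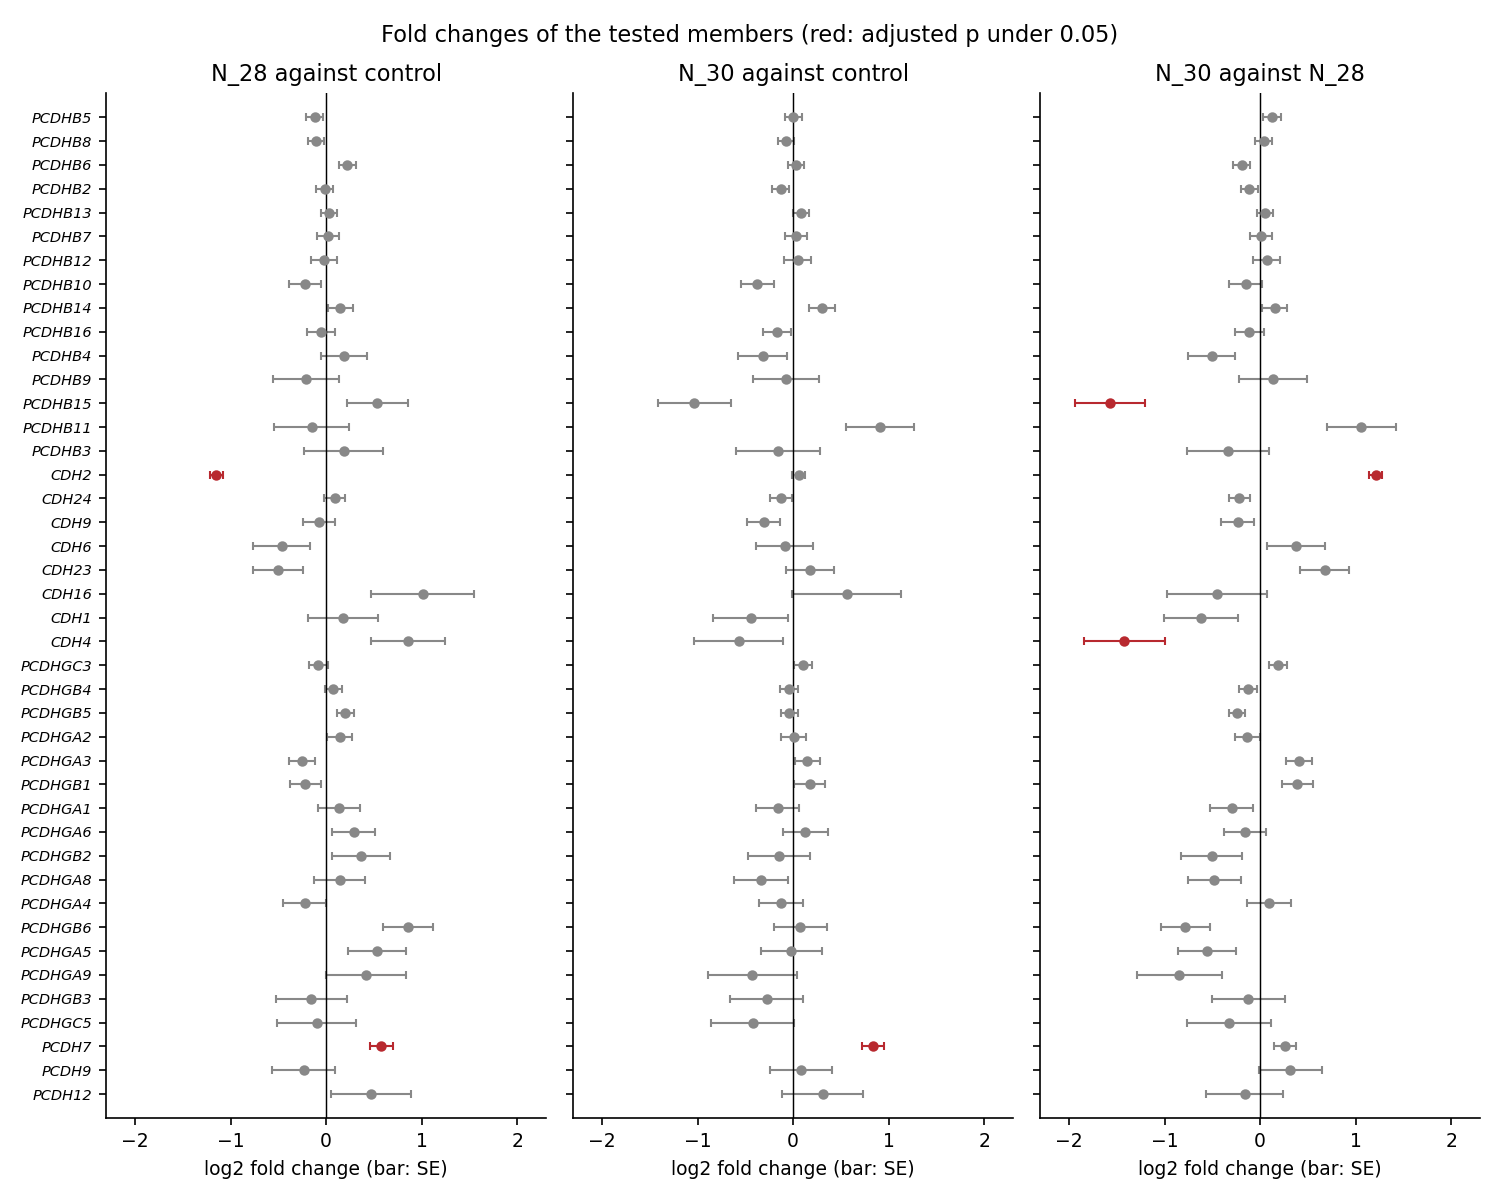
Log2 fold changes of the 42 tested members in 3 comparisons, with the SE as error bar and 1 row per gene, grouped by family. Red points passed the test (adjusted p under 0.05): CDH2 and PCDH7 in N_28 against control, PCDH7 in N_30 against control, and CDH2, CDH4 and PCDHB15 in N_30 against N_28. The other points are grey, and their error bars widen toward the low genes of each family.

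Groups without overlap made up a smaller share of the members than of all tested genes in each comparison. In N_28 against control the 3 libraries of each group did not overlap for 8 of the 42 members (19.0%, where 28.7% of all tested genes did not overlap), 6 above and 2 below (14.2% and 14.6% of all). In N_30 against control this held for 3 of 42 (7.14%, where 15.2% of all did), namely PCDH7, PCDHB13 and PCDHB14, which were above the controls (7.53% of all were above and 7.64% below). Between the sets it held for 12 of 42 (28.6%, where 36.4% of all did), 6 above and 6 below (18.4% and 18.1% of all). PCDHGB6, a gamma gene, came closest to a call without passing it: it stood at 0.831, 1.02 and 1.08 CPM in the controls, 2.07, 1.65 and 1.62 in N_28 and 0.782, 1.36 and 0.935 in N_30. Its N_28 libraries were above all the others, with a log2 fold change against control of 0.86 (SE 0.26, adjusted p = 0.0510).

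CDH1 was low in every group and passed the test in no comparison. CDH1 stood at 2.49, 1.38 and 1.30 CPM in the controls, at 1.78, 2.64 and 1.48 in N_28 and at 2.23, 0.855 and 0.846 in N_30, with all groups overlapping. Against control its log2 fold change was 0.18 for N_28 (SE 0.37, adjusted p = 0.828) and -0.44 for N_30 (SE 0.39, adjusted p = 0.733). Per kilobase it reached 0.270 CPM over all libraries, against 24.8 for CDH2. CDH6, the kidney cadherin, was at 9.24, 4.85 and 3.81 CPM in the controls, 3.56, 5.61 and 3.84 in N_28 and 7.64, 4.43 and 4.90 in N_30. CDH16, the kidney-specific cadherin, was at 2.89, 1.48 and 0.717 CPM in the controls, 3.18, 5.28 and 1.88 in N_28 and 5.06, 1.31 and 1.38 in N_30. For both genes all groups overlapped, and neither passed the test in any comparison (for CDH16, adjusted p = 0.284 in N_28 and 0.777 in N_30).

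Of the remaining tested cadherins, CDH9, a type II cadherin, averaged 6.21 CPM (SD 0.264, n = 3) in the controls, 5.87 (SD 0.556) in N_28 and 5.001 (SD 1.36) in N_30. CDH23, the long cadherin of hair-cell tip links, averaged 3.33 (SD 0.632), 2.34 (SD 0.725) and 3.73 (SD 1.13) CPM. Neither passed the test. The other 15 cadherins were too low to test, among them P-cadherin CDH3 with 21 counts over all 9 libraries, the endothelial VE-cadherin CDH5 with 16, the mesenchymal CDH11 with 1, the GPI-anchored CDH13 with 4 and the liver-intestine cadherin CDH17 with 5.

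The 3 clusters, which sit side by side on chromosome 5, gave different summed counts. The 15 alpha genes summed to between 0.179 and 1.37 CPM a library, from 4 to 25 counts, and none of them could be tested. The highest, PCDHA7, had 49 counts over the 9 libraries and lay between 0.101 and 0.482 CPM. The beta genes summed to 133 CPM (SD 8.35, n = 3) in the controls, 133 (SD 1.31) in N_28 and 132 (SD 5.34) in N_30. The gamma genes summed to 86.2 CPM (SD 5.36, n = 3), 90.2 (SD 4.35) and 86.6 (SD 4.04). For both sums the ranges of the 3 groups overlapped. The summed cadherins, in contrast, ran from 127 to 141 CPM in N_28 against 204 to 232 in the controls and 205 to 233 in N_30, and CDH2 was the cadherin called there.

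**Figure D4:**
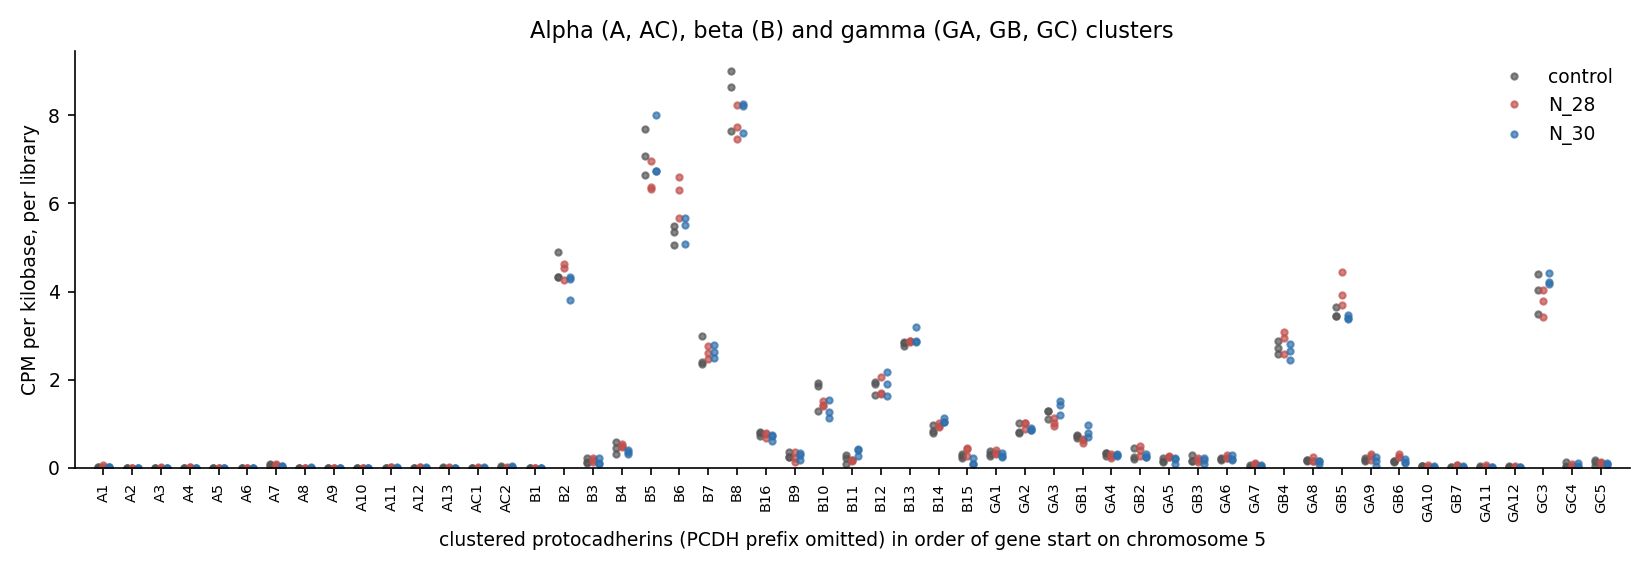
Levels of the 53 clustered protocadherins in the order of their starts on chromosome 5, in CPM per kilobase of merged exons, with 1 point per library coloured by group. The alpha genes and PCDHB1 lie at or near 0, PCDHB8, PCDHB5 and PCDHB6 are the highest, and in the gamma cluster PCDHGB4, PCDHGB5 and PCDHGC3 stand above their neighbours in all 9 libraries.

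Within the clusters the levels were uneven from gene to gene. Tested beta genes ran from 0.158 CPM per kilobase (PCDHB3) to 8.09 (PCDHB8), and tested gamma genes from 0.104 (PCDHGC5) to 3.997 (PCDHGC3). Against control, edgeR called 0 of 15 beta genes in N_28 (1 at an unadjusted p under 0.05) and 0 of 15 in N_30 (4 at that level), and 0 of 16 gamma genes in either set (2 and 0 at that level). Of all tested genes 10.2% were called in N_28 and 0.866% in N_30, and 23.9% and 11.4% had an unadjusted p under 0.05. DESeq2 also called 0 in each of these. Median log2 fold changes were -0.01 for the beta genes and 0.14 for the gamma genes in N_28, and -0.07 and -0.04 in N_30. Between the sets 1 of 15 beta genes was called, PCDHB15, and 0 of 16 gamma genes by edgeR and by DESeq2 (4 at an unadjusted p under 0.05), beside 18.3% of all tested genes.

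How reads were assigned limits the values of single clustered genes. The alpha genes share at least 2866 exon bases with the other 14 in the annotation, the gamma genes at least 2181 with the other 21, since each spliced transcript joins its own first exon to the same constant exons, while the beta genes share none with another member. The sources used here do not give how reads in shared exons were counted, so levels of single alpha and gamma genes are uncertain. The sums of the alpha and gamma clusters are uncertain beside the beta sum for the same reason. The beta genes are close copies of each other, and reads matching several of them could be split or dropped in the same way.

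The 47 genes that were not tested had 0 to 54 counts over all 9 libraries, and no library gave any of them more than 0.673 CPM. Of these, 13 had no count in any library: PCDHA2, PCDHA5, PCDHA6, PCDHB1, CDH7, CDH12, CDH18, CDH19, PCDH11X, PCDH11Y, PCDH15, PCDH18 and PCDH20. With 3 counts as the limit that a count of 0 allows, each could have been present at up to 0.131 to 0.181 CPM, depending on the library. This limit covers only reads that could be assigned to the gene. PCDH20 shares 95.8% of its exon bases with another annotated gene, and PCDHA2, PCDHA5 and PCDHA6 share 56.6%, 48.6% and 46.7%. If reads in shared exons were dropped, the limit does not hold for these genes. The untested genes with counts included PCDH1, a non-clustered protocadherin of epithelia, with 10 counts in all, and CDH15, the muscle cadherin, with 54.

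The counts over partner genes that follow stand beside 10.2% of all tested genes called in N_28 against control, 0.866% in N_30 against control and 18.3% between the sets. They come from fits without the replicate block. With the block 2.82% of all tested genes were called in N_30 against control, and the partner genes were not counted in that fit. The catenins bind cadherin tails. By edgeR 0 of the 7 tested catenin genes were called against control in N_28 (1 at an unadjusted p under 0.05, and 1 called by DESeq2) or in N_30 (0 at that level, and 0 by DESeq2). Beta-catenin (CTNNB1) averaged 191 CPM in the controls, 186 in N_28 and 182 in N_30, alpha-catenin (CTNNA1) 357, 368 and 345, p120-catenin (CTNND1) 152, 137 and 155, and plakoglobin (JUP) 109, 88.0 and 89.9. Between the sets 2 catenin-family genes were lower in N_30, CTNNAL1 (-0.34, SE 0.08, adjusted p = 0.0109) and PKP4 (-0.22, SE 0.07, adjusted p = 0.0460).

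Desmosomal cadherins and plaque proteins, the parallel system that anchors keratins, gave 1 called gene of 7 tested in each set by edgeR, and by DESeq2 1 in N_28 and 2 in N_30. DSG2, the desmoglein of simple epithelia, was lower in N_28 (153 CPM against 217 in the controls, log2 fold change -0.50, adjusted p = 0.000217) and its N_30 level was 223 CPM. The plaque protein DSP was lower in N_30 (17.4 CPM against 25.5 in the controls, log2 fold change -0.55, adjusted p = 0.0183) and was 25.4 CPM in N_28. Between the sets DSG2 (0.54, adjusted p = 6.44e-05) and PKP1 (0.50, adjusted p = 0.0124) were higher in N_30 and DSP was lower (-0.55, adjusted p = 0.00192).

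Among 13 tested atypical cadherins and their kin, 2 were higher and 2 lower in N_28 against control. The higher ones were FAT4 (0.49, adjusted p = 0.00382), a giant cadherin of planar polarity, and FJX1 (0.26, adjusted p = 0.0159), the kinase family member related to Four-jointed. The lower ones were CELSR2 (-0.47, adjusted p = 0.0427) and the calsyntenin CLSTN2 (-1.63, adjusted p = 0.0339). In N_30 edgeR and DESeq2 called 0 of the 13 (1 at an unadjusted p under 0.05). Between the sets CELSR2 was higher in N_30 (0.58, adjusted p = 0.00947) and FAT4 (-0.43, adjusted p = 0.00520), FJX1 (-0.20, adjusted p = 0.0387) and DCHS1, the ligand of FAT4 (-1.41, adjusted p = 0.00603), were lower.

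Junction adaptors and nectins, 18 tested, showed 2 genes higher and 3 lower in N_28. The adhesion molecule NECTIN3 (0.45) was among the higher, and LIMA1 (-0.61), NECTIN1 (-0.46) and MAGI1 (-0.38) were lower, all by edgeR's adjusted p. In N_30 against control edgeR and DESeq2 called 0 of the 18 (7 at an unadjusted p under 0.05). Between the sets 2 of the 18 were higher and 4 lower in N_30, among them the actin binder LIMA1 (0.87, adjusted p = 1.84e-05) and the nectin adaptor AFDN (-0.30, adjusted p = 0.00155). Of the 15 tested genes that cut, process or turn over cadherins, 1 was higher and 3 were lower in N_28, led in size by the matrix protease MMP7 (-1.24, adjusted p = 0.0372), and edgeR and DESeq2 called 0 in N_30 (1 at an unadjusted p under 0.05). ADAM10, the main sheddase of CDH1 and CDH2, averaged 159 CPM in the controls, 145 in N_28 and 170 in N_30, and was higher in N_30 than in N_28 (0.23, adjusted p = 0.0141).

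The 16 tested regulators of the cadherin switch gave 1 gene higher and 3 lower in N_28, and 0 in N_30 by edgeR (3 at an unadjusted p under 0.05, and 1 called higher by DESeq2). In N_28 FOXC2 was higher (0.34, adjusted p = 0.00149), and the splicing factor ESRP2 (-0.73, adjusted p = 0.000895), the E-protein TCF4 (-1.57, adjusted p = 0.000589) and the Polycomb gene SUZ12 (-0.24, adjusted p = 0.0107) were lower. The repressors of CDH1 best known for the switch did not pass the test against control: TWIST1 averaged 123 CPM in the controls, 126 in N_28 and 148 in N_30, ZEB1 34.1, 37.3 and 31.5, ZEB2 14.3, 14.5 and 15.8, and SNAI1 1.69, 1.11 and 2.26. SNAI2 was near 0 in all groups. Between the sets 5 regulators were higher and 2 lower in N_30, with ESRP2 (1.05, adjusted p = 2.46e-05), FOXC2 (-0.50, adjusted p = 4.12e-05) and ELF3 (1.07, adjusted p = 0.000472) at the lowest p.

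For the clustered protocadherins, 22 chromatin regulators known to act on their promoters were tested. CTCF, which binds the promoter element and loops it to enhancers, averaged 92.3 CPM in the controls, 94.3 in N_28 and 91.7 in N_30, and SMCHD1, which silences clustered protocadherins, 77.4, 69.6 and 68.9, neither passing the test. Against control, LRIF1 (0.37, adjusted p = 0.0312) was higher and the cohesin loader MAU2 (-0.45, adjusted p = 0.00149) lower in N_28, and edgeR and DESeq2 called 0 of the 22 in N_30 (3 at an unadjusted p under 0.05). Between the sets 1 was higher (MAU2, 0.45) and 6 were lower in N_30, with DNMT1 (-0.26, adjusted p = 0.00353) and SMC1A (-0.24, adjusted p = 0.00516) at the lowest p of these. Of 15 tested partners of protocadherin tails, such as the WAVE complex that PCDH10, PCDH17 and PCDH19 recruit, edgeR called 0 in N_28 (3 at an unadjusted p under 0.05, 1 by DESeq2) and 0 in N_30 (1 at that level, 0 by DESeq2). Between the sets PTK2B (0.66, adjusted p = 0.00892) was higher and CYFIP2 (-0.40, adjusted p = 0.00162), WASF2 (-0.18, adjusted p = 0.035) and PTK2 (-0.20, adjusted p = 0.0371) were lower in N_30.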

How the data were processed

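RNA-seq read counts per gene were analysed for 9 libraries. The authors deposited 1 table of whole-number counts with Ensembl gene identifiers and no normalization, per the file header and its values. The submitters' processing notes name the genome build mm8, a mouse build, while the identifiers are human; for aligner, counter, annotation and strand setting the labels are silent (not given in the sources used here). Of 60448 rows, 56434 were named from a gene table and 434 from GENCODE 29, and 3580 had no name. Coordinates and exon lengths are those of GENCODE 29 on GRCh38, not of the authors' annotation.

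Members were found by symbol, and the cluster letters were read to include the GA, GB, GC and AC types. The members and all gene lists were chosen with earlier results of these data known. Genes passing edgeR's filterByExpr (minimum count 10) were fitted with the quasi-likelihood test (edgeR 4.0.16, limma 3.58.1, R 4.3.3) on all 9 libraries, 3 per group, with TMM scaling, without a replicate term, and Benjamini-Hochberg adjustment over 15019 genes at 0.05. The SE is the log2 fold change divided by the square root of the F statistic. Alternatives were DESeq2 1.42.0, RLE scaling, no filter, a filter at a mean of 1 CPM, only the groups compared, a replicate block, each library left out, and leaving out the 3 libraries numbered 3. The script was tested on simulated counts. Members described in full were those called in any comparison, the 8 highest per kilobase and the named cadherins; of the partner lists, up to 3 genes called between the knock-down sets with the lowest p, fixed names (CTNNB1, CTNNA1, CTNND1, JUP, SNAI1, SNAI2, ZEB1, ZEB2, TWIST1, CTCF, SMCHD1), and other genes chosen after their values were seen. PCDHGB6, CDH9, CDH23, CDH15, PCDH9, PCDH12 and the neighbours were likewise chosen after seeing values.

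Replicate numbers were checked by the correlation of same-numbered deviations from group means: control and N_30 gave 0.122, 0.169 and 0.306, every pair over 0.1, so these numbers were taken to pair those 2 groups, from the data and not from the labels; pairs with N_28 ran from -0.0588 to 0.235 and were not taken as paired. The libraries numbered 3 gave 0.142 for control and N_28 and 0.235 for N_28 and N_30. Both lie above the lowest value of control and N_30, so the pairing rests on the cut of 0.1 for every pair. No 2 libraries of a group were alike within sampling noise.

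One gene of the junction list is not reported here.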

Additional observations from a re-analysis of the deposited data

Results flagged for a closer look

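Between the knock-down sets 3 members differed by the test of the difference itself, edgeR's quasi-likelihood test of N_30 against N_28. CDH2 differed by 1.21 on the log2 scale (adjusted p = 1.27e-07), with all 3 N_30 libraries above all 3 N_28 libraries. CDH4 differed by -1.42 (adjusted p = 0.0322) and PCDHB15 by -1.57 (adjusted p = 0.00877), with all 3 N_30 libraries below all 3 N_28 libraries. CDH4 and PCDHB15 rest on at most 41 counts in any library.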

How the results depend on the processing

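CDH2 was called lower in N_28 and higher in N_30 than in N_28, and PCDH7 higher in both sets, in all 16 alternatives run for each, with log2 fold changes from -1.19 to -1.11 and from 1.15 to 1.26 for CDH2, and from 0.44 to 0.68 in N_28 and 0.75 to 0.90 in N_30 for PCDH7. CDH4 between the sets was called in 11 of 15 alternatives and could not be tested under the filter at a mean of 1 CPM. PCDHB15 was called in 15 of 16. PCDHGB6, not called as reported, was called in N_28 in 6 of 16, with an adjusted p from 0.0414 to 0.187, and CDH16 in 2 of 16 there (no filter on low counts, and the block). Between the sets PCDHB11, with a log2 fold change of 1.06 and an adjusted p of 0.0561 in the fit without these changes, was called in 7 of 16, CDH23 and PCDHGB6 in 3 each, PCDH7 and PCDHGA3 in 2 each and CDH24 in 1. No called value changed its sign in these alternatives. Without a filter on low counts, with 29921 genes tested, 4 of 76 members were called in N_28 against control (5.26%, beside 6.57% of all genes) and 5 of 76 in N_30 against N_28 (6.58%, beside 10.3%). In N_30 against control that fit called 1 of 76 (1.32%, beside 1.75%). The length of the longest coding transcript in place of merged exons moved CDH2 from 24.8 to 28.3 CPM per kilobase, and 7 of the 8 highest members were shared.

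With the replicate number as a block, 4 of 42 members were called in N_28 against control (9.52%, beside 15.3% of all tested genes) and 9 of 42 in N_30 against N_28 (21.4%, beside 24.5%). Pairs with N_28 were not taken as paired, though the block fit held all 9 libraries. In N_30 against control, where the numbers were taken to pair the libraries, the block gave 1 member as before (2.38%, beside 2.82%). With both sets averaged it gave 2 of 42 (4.76%, beside 4.1%). Fits that each dropped 1 library gave 2 to 3 members in N_28 (4.55% to 6.82%, beside 6.35% to 11.2% of all genes) and 1 in N_30 (2.27% to 2.33%, beside 0.378% to 1.18%). They gave 2 to 4 between the sets (4.55% to 9.3%, beside 12.1% to 19.1%) and 2 for both averaged (4.55% to 4.65%, beside 0.875% to 2.11%). A strict reading of the naming rule, which keeps 65 of the 89 members, 26 of them tested, changed no count of calls. Of the 26, 2 were called in N_28, 1 in N_30, 3 between the sets and 2 for both averaged. These stand beside 10.2%, 0.866%, 18.3% and 1.78% of all tested genes.

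The 47 untested members are below what this depth can compare, and differences of low clustered genes rest on few counts.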

Other observations

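Some members were highest in the same library of each group. CDH1, CDH6, CDH16, CDH2 and PCDHGB2 had their highest level in control library 1, N_28 library 2 and N_30 library 1. They were 5 of 42 tested members (11.9%), where 747 of all 15019 tested genes (4.97%) had this order. This order was noticed in the levels of these genes, so their number is no test of it. For CDH16, a cadherin of the kidney tubule, those libraries stood at 2.89, 5.28 and 5.06 CPM and the other 6 between 0.717 and 3.18. For CDH6 they stood at 9.24, 5.61 and 7.64 CPM and the other 6 between 3.56 and 4.90. The labels name nothing that these 3 libraries share.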
